A study of Mus musculus with 12 samples.

Results

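Translation initiation factors are the proteins that bring the initiator tRNA, the mRNA and the ribosomal subunits together at a start codon. The genes described here are the mouse genes whose symbol begins with Eif1 to Eif6, taken from the annotation of the array's probe sets. A total of 46 genes with 121 probe sets were found among 15130 genes and 45101 probe sets. Each gene was followed by its probe set with the highest mean signal, except Eif1ax, for which each of its 3 probe sets was followed. Counts of genes below use the brightest probe set of each gene, Eif1ax included, unless probe sets are named. All 46 genes, and 120 of the probe sets, passed the screen on detection. A further 6 probe sets that carry several symbols (among them Eif3j1 with Eif3j2) were left out.

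RNA from small intestine was measured in 12 mice, 1 Affymetrix array per mouse and 3 mice per genotype, at day 5 after induction. Control mice were Cre+Apc+/+p53+/+. Mice without p53 were Cre+Apc+/+p53-/-, those without Apc were Cre+Apcfl/flp53+/+, and those without either were Cre+Apcfl/flp53-/-; they are called p53-deficient, Apc-deficient and double-deficient here. Every mouse, controls included, carried the AhCre transgene, in which a Cyp1a promoter drives Cre, and received β-naphthoflavone at 80 mg/kg (3 injections in 1 day according to the labels, daily injections according to the methods). Apc was therefore deleted only in cells where Cre was induced, whereas the p53 alleles were null in the whole animal. The ages of the mice are not given in the sources used here. The samples were whole tissue, in which fewer cells of a type and less RNA per cell cannot be told apart.

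In outline, the cap of an mRNA is bound by eIF4E, which with the scaffold eIF4G and the helicase eIF4A forms eIF4F. The eIF4E-binding proteins block this step until mTOR phosphorylates them. The initiator tRNA is carried by eIF2 with GTP, and eIF2B recharges eIF2 after each round. Kinases that phosphorylate eIF2 block eIF2B and lower initiation under stress. The large complex eIF3 holds the small ribosomal subunit to the mRNA, eIF1 and eIF1A help it to scan for the start codon, and eIF5 and eIF5B act as the subunits join. In the intestine, loss of Apc activates Wnt signalling and with it Myc, a transcription factor known to drive genes of protein synthesis.

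The p53 transcript was checked first. Its scaled signals (signals brought to the same mean log2 on each array) were 190.3, 202.7 and 273.5 in controls and 271.7, 391.8 and 369.3 in Apc-deficient mice, against 10.17, 11.97 and 7.945 in p53-deficient and 3.546, 15.14 and 3.901 in double-deficient mice. The floxed part of Apc was not located on the Apc probe sets, so Apc itself was not checked. All 13 enterocyte transcripts measured were detected on each of the 9 arrays whose detection values could be used (those of the double-deficient mice could not be matched to arrays). Of all probe sets, 40.8% to 43.1% were detected on control arrays, 45.5% to 46.9% in p53-deficient and 47.9% to 48.5% in Apc-deficient mice. Exocrine pancreas transcripts were high on control 3 and double-deficient 3 (median log2 signals of 12.70 and 11.17 over 13 genes, against 5.10 to 5.82 on the other arrays). Smooth muscle transcripts were low on control 1 (6.72 over 10 genes, against 7.78 to 9.87 elsewhere). The names of the detection columns hold a number code that differs between genotypes and whose meaning is not stated; if it marks a run, run and genotype cannot be told apart.

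Initiation factor genes as a group were higher in Apc-deficient than in control intestines. The median log2 signal of the 46 genes was 9.67, 10.15 and 10.02 on the control arrays and 10.68, 11.01 and 10.95 on the Apc-deficient arrays, so the groups did not overlap. On the double-deficient arrays it was 10.45, 10.82 and 10.44, above every control array. The p53-deficient arrays, at 10.21, 9.80 and 10.02, lay around the controls. Summed over the 46 genes, scaled signals ran from 55410 to 70960 in controls, 69280 to 92170 in p53-deficient, 87810 to 117200 in double-deficient and 105500 to 132400 in Apc-deficient intestines.

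**Figure D1:**
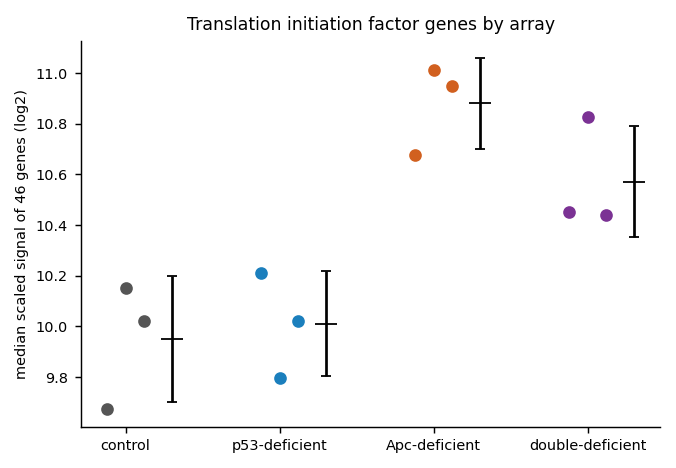
Median scaled signal (log2, arbitrary units) of the 46 initiation factor genes on each array, by genotype; points are arrays and bars the mean ± SD over 3 arrays. The 3 Apc-deficient arrays lie between 10.68 and 11.01 and the 3 control arrays between 9.67 and 10.15.

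In Apc-deficient against control intestines, 29 of the 46 genes rose and 0 fell at an adjusted p under 0.05 (limma, Benjamini-Hochberg over 35622 probe sets). Over all 15097 genes tested in the same way, 19.3% rose and 12.3% fell. The median log2 change of the 46 genes was 0.91, against 0.06 over all genes, and 43 of the 46 changes were above 0. In 34 members every Apc-deficient array lay above every control array, as did 27.5% of all genes. The largest increases were those of Eif4ebp1 (log2 change 2.00), Eif3b and Eif3c (both 1.54), and the lowest values those of Eif2ak1 and Eif4e3 (both -0.33) and Eif5a2 (-0.06), none of them called.

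Level enters into this comparison, because brighter probe sets moved upward in general. Of the 46 genes, 44 had a mean log2 signal of 8 or more, as did 6627 of all genes. Among these brighter genes 29.8% rose in Apc-deficient intestines with a median change of 0.36, and among the 44 members 29 rose with a median change of 0.99. For the 14 members with a mean log2 signal of 11 to 12, the median change was 1.125, against 0.37 for the 515 genes at that level.

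**Figure D2:**
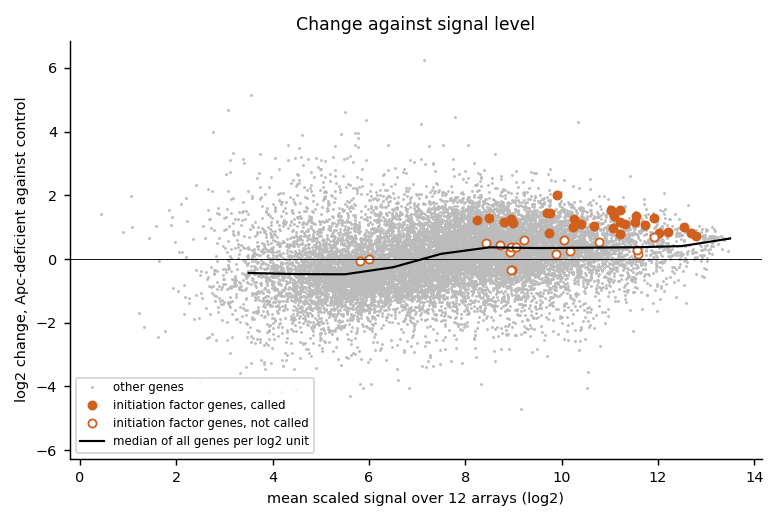
Log2 change in Apc-deficient against control intestines (vertical axis) against the mean scaled log2 signal over 12 arrays (horizontal axis); grey points are 15051 other genes, orange points the 46 initiation factor genes (filled where adjusted p was under 0.05) and the line is the median of all genes in each log2 unit of signal. Between 8 and 13 the line lies at 0.34 to 0.41, and most members lie above it.

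The size of the group's shift depends on how arrays are scaled. Without scaling, the median of all probe sets fell by 0.66 in Apc-deficient against control intestines, and the members' median lay 0.91 above it. Only 3 members were then called higher and 2 lower (Eif2ak1 and Eif4e3). Among all 35622 probe sets, 1240 were called higher and 11096 lower without scaling. After quantile normalisation 23 members were called higher and 1 lower (Eif2ak1), with a median change of 0.54. Of all probe sets, 4434 were then called higher and 4085 lower.

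Averaged over p53 status, which uses all 12 arrays, loss of Apc raised 25 members and lowered 1 (20.1% of all genes rose and 17.3% fell). The median change was 0.67, against -0.02 over all genes. The member that fell was Eif2ak1 (log2 change -0.45, SE 0.16, adjusted p = 0.046), and this call was lost in 12 of 21 alternatives, 11 of which left out 1 or 2 arrays. The largest increases were those of Eif4ebp1 (2.12), Eif2b1 (1.37) and Eif3m (1.18). After Eif2ak1 the lowest values were those of Eif4e3 (-0.43) and Eif5a2 (-0.21), which were not called. In this contrast 22 of the 26 calls passed under every alternative, no scaling included.

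In double-deficient against control intestines 13 members rose and 0 fell (9.54% of all genes rose, 7.69% fell, and 13.8% of the brighter genes rose). The median change was 0.56, against -0.02 over all genes. All 13 were also among the 29 genes that rose in Apc-deficient mice; both comparisons use the same 3 control arrays. They were Eif2s2, Eif2b1, Eif2a, Eif3a, Eif3d, Eif3e, Eif3m, Eif4a1, Eif4b, Eif4e, Eif4ebp1, Eif5 and Eif5b. Eif4ebp1 (2.18), Eif3m (1.58) and Eif2b1 (1.30) had the largest changes, and Eif5a2 (-0.62), Eif4e3 (-0.36) and Eif2ak1 (-0.31) the lowest, without a call. This count rested on single arrays: it was 5 without control 1, 8 without control 3 and 3 without double-deficient 2. Without both pancreas-rich arrays it was 1, Eif4ebp1, with a median change of 0.71.

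Within p53-null mice, where control arrays enter only through the shared estimate of the spread, 4 members rose in double-deficient against p53-deficient intestines and 0 fell (5.01% and 6.65% of all genes). They were Eif4ebp1 (2.24), Eif2b1 (1.30), Eif4e (0.94) and Eif2b3 (0.93), and the median of the 46 genes was 0.37, against -0.06 over all genes. The lowest values were those of Eif2ak1 (-0.58), Eif4e3 (-0.53) and Eif5a2 (-0.36), not called. With quantile normalisation 13 members rose, beside 2013 higher and 1860 lower among all 35622 probe sets. The count of 4 became 1 without p53-deficient 2, p53-deficient 3, double-deficient 1 or double-deficient 2, and 2 without control 3 or double-deficient 3.

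Loss of p53 alone moved no member's brightest probe set past the threshold in limma. Of the 46, 0 were called and 8 had an unadjusted p under 0.05, as did 13.7% of all genes. A dimmer probe set each of Eif1ax and Eif5b was called and is given with those genes. The median change was 0.25, against 0.095 over all genes (0.106% of which rose and 0.159% fell) and 0.225 over the brighter genes. The direction of this median turned with the scaling, since it was -0.01 after quantile normalisation and -0.36 without scaling. The largest values, none called, were those of Eif3a (0.68), Eif3m (0.66) and Eif3e (0.58) above 0, and of Eif2ak2 and Eif2ak4 (both -0.58) and Eif5a2 (-0.26) below 0. The 95% intervals of the members reached from -1.40 to 1.25.

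Between double-deficient and Apc-deficient intestines, the comparison that asks what loss of p53 adds once Apc is lost, 0 of the 46 brightest probe sets were called in limma (0.0596% of all genes rose and 0.053% fell), with 5 at an unadjusted p under 0.05 (16.0% of all genes). The median was -0.21, against -0.17 over the brighter genes, and became -0.01 after quantile normalisation and 0.20 without scaling. The lowest values were those of Eif4ebp2 (-1.004, 95% interval -1.56 to -0.45, adjusted p = 0.11), Eif3b (-0.71) and Eif3c (-0.70), and the highest those of Eif1b (0.28), Eif4a2 (0.21) and Eif4ebp1 (0.18). The interaction, the effect of Apc loss without p53 minus that with p53, was called for 0 of the 46 brightest probe sets in limma (0.0% of all genes either way), with 12 at an unadjusted p under 0.05 (16.1% of all genes). A dimmer Eif1ax probe set that was called is described with that gene. The median interaction of -0.45 became -0.025 after quantile normalisation and 0.575 without scaling. Its extremes were Eif3b (-1.08), Eif4ebp2 (-0.99) and Eif4h (-0.95) below 0, and Eif2ak4 (0.31), Eif4ebp1 (0.24) and Eif4e2 (0.19) above 0.

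**Figure D3:**
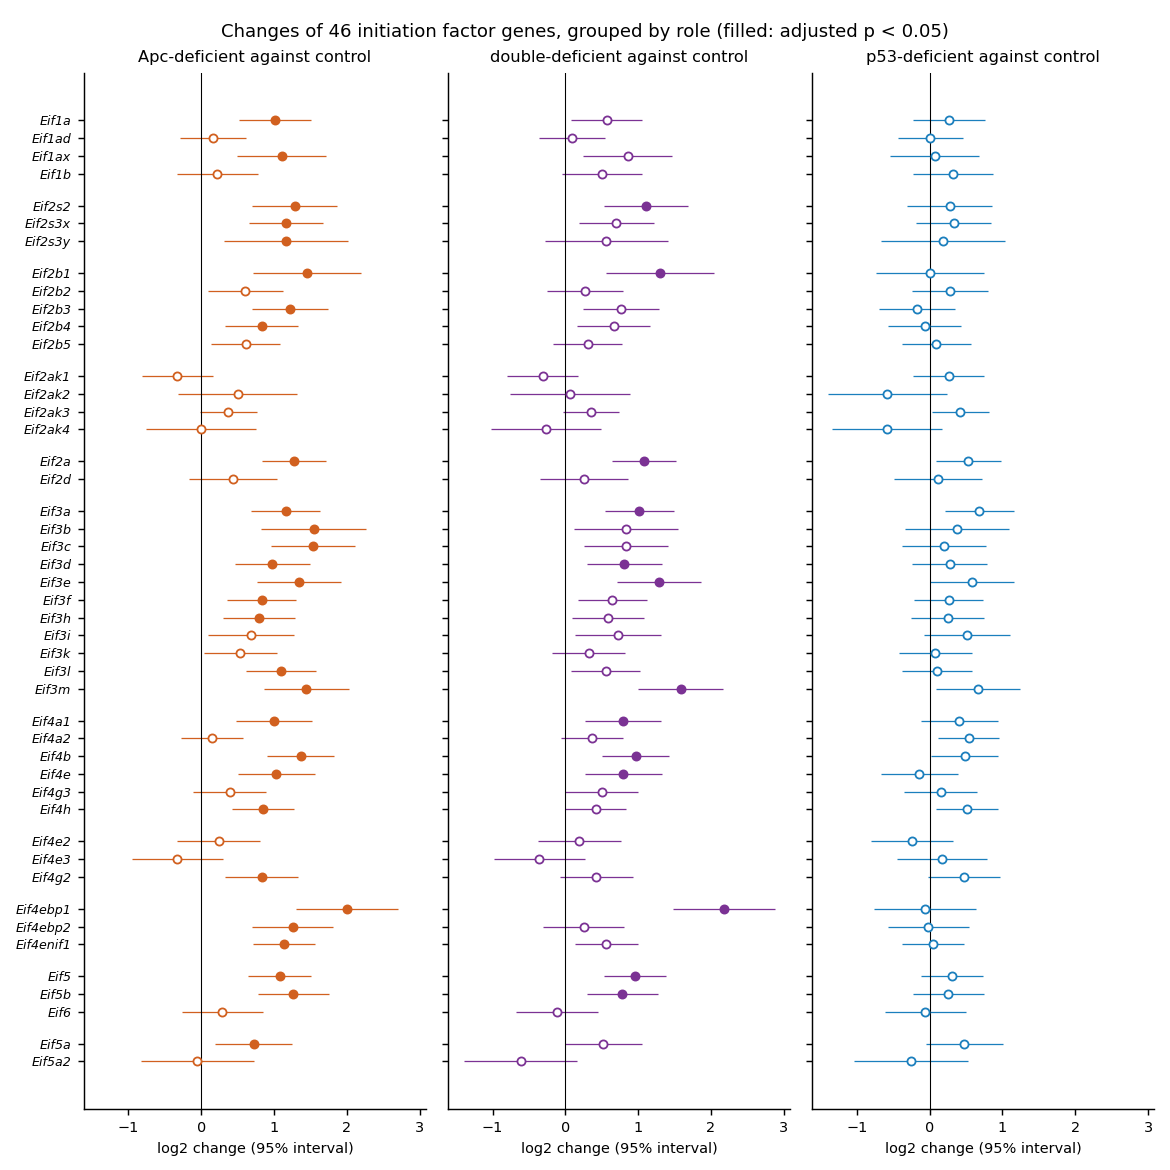
Log2 changes of the 46 initiation factor genes (rows, grouped by role) in 3 comparisons with control intestines; points are fitted changes, lines 95% intervals, and filled points have an adjusted p under 0.05. Filled points number 29 for Apc-deficient, 13 for double-deficient and 0 for p53-deficient mice.

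By role, the eIF4E inhibitors held the gene with the largest change. Eif4ebp1 encodes 4E-BP1, which binds eIF4E and keeps it from eIF4G. Its scaled signals were 285, 586 and 622 in controls, 473.7, 409 and 469.6 without p53, 1912, 1847 and 1872 without Apc and 1563, 2966 and 2063 without both. Every Apc-null array was therefore above every array with Apc, while the p53-deficient arrays lay within the range of the controls. The log2 change was 2.00 (SE 0.32, adjusted p = 0.0023) without Apc and 2.18 (SE 0.32, adjusted p = 0.0041) without both genes, each against controls, and the interaction was 0.24 (95% interval -0.75 to 1.23). Both calls held in each of the 22 alternatives. The probe set is of the _x_at kind, which can bind related transcripts. Another, 1417562_at, which is not of that kind and was detected on 2 of 3 control arrays, gave 2.03 in Apc-deficient mice (SE 0.41, adjusted p = 0.0064).

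Eif4enif1 encodes 4E-T, which binds eIF4E and carries it into the nucleus. It rose in Apc-deficient intestines, from 377 ± 32.8 (mean ± SD, n = 3 here and below) to 829 ± 69.6. Its probe set was detected on 2 of 3 control arrays. Eif4ebp2, another eIF4E-binding protein, had signals of 810.0, 1002 and 1055 in controls, 1048, 1024 and 772 without p53, 1683, 2231 and 3106 without Apc and 994, 1233 and 1181 without both. The Apc-deficient arrays stood above all others. The gene was called in Apc-deficient (1.26, SE 0.25, adjusted p = 0.0061) but not in double-deficient mice (0.25, adjusted p = 0.51), and the interaction, which tests that difference, missed the threshold (-0.99, adjusted p = 0.26). Every other probe set of the gene lay below 0 in Apc-deficient against control intestines, none of them called. Of these, 1437733_at gave -0.74, 1417084_at -0.24, 1455575_at -1.02 and 1456613_at -0.21. Probe sets 1455575_at and 1456613_at were undetected on all 9 arrays with detection values. The increase of Eif4ebp2 therefore rests on its brightest probe set alone.

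Of the 6 genes of the cap-binding complex eIF4F and its helpers, 4 rose in Apc-deficient and 3 in double-deficient mice. Eif4e, the cap-binding protein, had signals of 1060, 1261 and 1346 in controls, 1355, 824 and 1195 without p53, 2026, 2980 and 2536 without Apc and 2011, 2400 and 1943 without both. On this probe set, 1450908_at, all 6 Apc-null arrays lay above the 6 arrays with Apc. The other Eif4e probe sets were not called in Apc-deficient mice: 1423220_at gave 0.81, 1450909_at 0.86 and 1444010_at -0.24. On 1423220_at the groups overlapped, with 770 on p53-deficient 1 against 683 on Apc-deficient 1. The helicase gene Eif4a1 went from 4104 ± 724 in controls to 8199 ± 1419 in Apc-deficient intestines, and Eif4h, a helper of the helicase, from 3486 ± 284 to 6288 ± 783. Eif4b, the other helper, changed by 1.36 in Apc-deficient mice (SE 0.21, adjusted p = 0.0019), and this call held in every alternative. Its signals were 1167, 1377 and 1474 in controls, 1861, 1839 and 1876 without p53, 3205, 2973 and 4229 without Apc and 2473, 3118 and 2276 without both. All 6 Apc-null arrays and the p53-deficient arrays lay above the controls, the latter without a call (0.48). The related helicase gene Eif4a2 was not called, with 2556 ± 75.3 in controls and 2861 ± 462 in Apc-deficient intestines (log2 change 0.15), nor was the scaffold gene Eif4g3 (0.39). Eif4a2 had 3711 ± 337.5 in p53-deficient and 3312 ± 472.7 in double-deficient mice, without a call against controls in either. Eif4g1, the main scaffold, was not analysed here.

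Among the relatives of eIF4 genes, Eif4g2, whose product resembles eIF4G but lacks its eIF4E-binding part, rose in Apc-deficient intestines from 4890 ± 244 to 8717 ± 842 (0.83, adjusted p = 0.022). This call was lost in 7 of 22 alternatives, among them quantile normalisation and the omission of control 1, control 3 or Apc-deficient 3. The cap-binding relatives Eif4e2 (0.24) and Eif4e3 (-0.33) were not called.

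**Figure D4:**
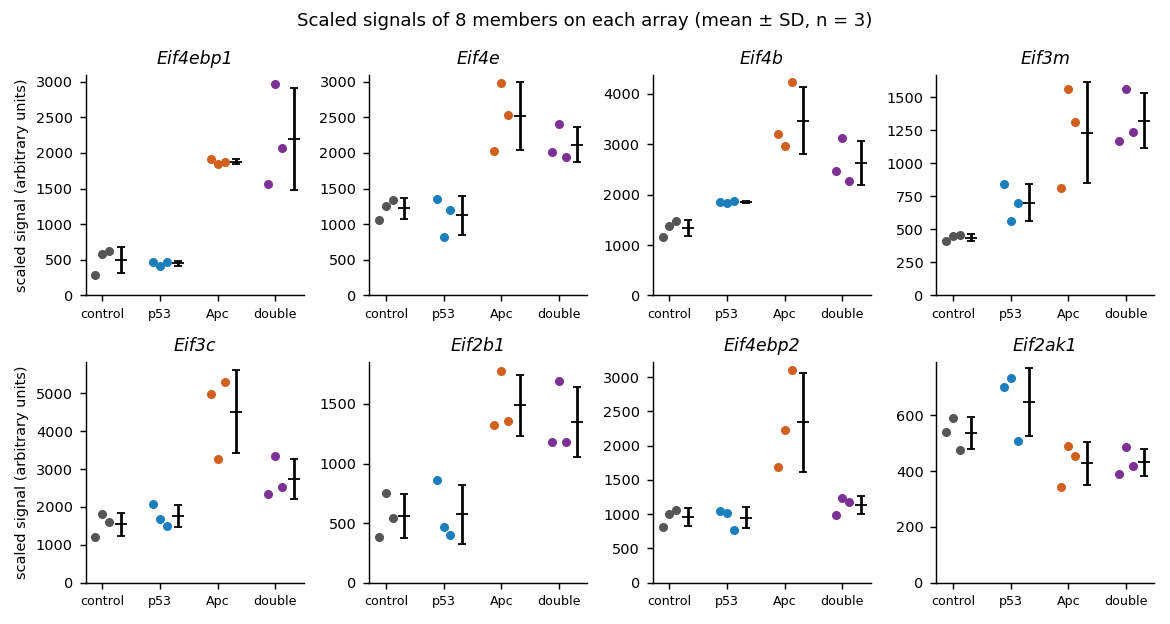
Scaled signals (arbitrary units, axes from 0) of 8 members on each array by genotype; points are arrays and bars the mean ± SD over 3 arrays. Eif4ebp1 is high on all 6 Apc-null arrays, and Eif4ebp2 on the 3 Apc-deficient arrays alone. The other Eif4ebp2 probe sets, not shown, did not rise in Apc-deficient mice.

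All 11 eIF3 genes measured were above 0 in Apc-deficient mice. Of these, 9 rose, and 4 also rose in double-deficient mice; Eif3i (0.68) and Eif3k (0.54) were not called in either by their brightest probe sets, though 1448264_a_at of Eif3i rose in Apc-deficient mice (0.76, adjusted p = 0.039). The median changes were 1.09 and 0.81. Eif3c, a core subunit, had signals of 1213, 1817 and 1598 in controls, 2068, 1694 and 1506 without p53, 4971, 3263 and 5306 without Apc and 2355, 3351 and 2520 without both. Its increase in Apc-deficient mice (SE 0.26, adjusted p = 0.003) passed in every alternative. Eif3b, another core subunit, went from 1383 ± 542 to 3785 ± 228. Eif3m, a smaller subunit, had the largest change of the complex in double-deficient mice. Its signals were 411, 449 and 456 in controls, 847, 562 and 701 without p53, 817, 1564 and 1316 without Apc and 1171, 1562 and 1235 without both. Its p53-deficient arrays also lay above the controls, without a call (0.66, adjusted p = 0.27). These values come from 1451076_s_at. The other Eif3m probe set, 1437189_x_at, was dimmer and detected on 2 of 3 control and 2 of 3 Apc-deficient arrays. It gave 0.40 in Apc-deficient mice, not called. In double-deficient mice it lay below controls (49.99 ± 1.17 against 81.5 ± 39.2), also not called. The subunit genes Eif3f and Eif3e changed by 0.83 and 1.34 in Apc-deficient mice, and Eif3a, which encodes the largest core subunit, by 1.16. The other eIF3 genes called there were Eif3d (0.97), Eif3h (0.79) and Eif3l (1.09).

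All 3 measured genes of eIF2 subunits rose in Apc-deficient intestines. Eif2s2, which encodes the beta subunit, went from 2512 ± 632 in controls to 6037 ± 1170. It rose also in double-deficient mice, to 5327 ± 840.0 (1.11, adjusted p = 0.021). The gamma subunit has an X-linked gene, Eif2s3x, and a Y-linked one, Eif2s3y. Their changes in Apc-deficient mice were 1.16 (SE 0.23, adjusted p = 0.006) and 1.16 (SE 0.39, adjusted p = 0.046). The signals of Eif2s3y were 426, 381 and 207 in controls and 860.0, 486 and 899.6 in Apc-deficient mice. Its groups did not overlap, but its call was lost in 14 of 22 alternatives, against 1 for Eif2s3x. The other Y-linked transcripts Kdm5d and Uty were detected on all 9 arrays with detection values.

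Of the 5 genes of eIF2B, 3 rose in Apc-deficient mice. Eif2b1, the alpha subunit, had signals of 383, 752 and 544 in controls, 858, 467 and 396 without p53, 1323, 1780 and 1358 without Apc and 1177, 1691 and 1182 without both. It changed by 1.45 (SE 0.34, adjusted p = 0.011) in Apc-deficient mice and by 1.30 (adjusted p = 0.028) in mice without both genes. Its probe set was detected on 2 of 3 control arrays. Eif2b3 (1.22) and Eif2b4 (0.83), the gamma and delta subunits, rose as well in Apc-deficient mice. Eif2b2 and Eif2b5, the beta subunit and the catalytic epsilon subunit, both gave 0.61 (adjusted p = 0.079 and 0.057). A dimmer probe set of Eif2b5, 1445908_at, went the other way (-1.13, adjusted p = 0.023), detected on 2 of 3 control and 1 of 3 Apc-deficient arrays.

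None of the 4 eIF2 kinase genes was called by its brightest probe set in any comparison of a genotype with controls, and their median was 0.19 in Apc-deficient mice. Eif2ak1, the haem-regulated kinase, had signals of 539.7, 589 and 476 in controls, 702, 733 and 509 without p53, 341, 490.3 and 453 without Apc and 391, 484 and 417 without both, and the ranges overlap. Eif2ak3, the kinase of the endoplasmic reticulum, gave 0.37 and Eif2ak2, which responds to double-stranded RNA, 0.50 in Apc-deficient mice. The brightest probe set of Eif2ak4, the amino acid sensor, was undetected on every control and p53-deficient array and detected on 1 Apc-deficient array. Another, 1421389_a_at, with the same detection, was called higher by limma in Apc-deficient (adjusted p = 0.0052) and double-deficient mice (adjusted p = 0.04). Because it was undetected on most Apc-deficient arrays and not assessed in double-deficient mice, it carries no fold here.

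Eif2a, whose product can deliver initiator tRNA without eIF2, rose in Apc-deficient (1.27, adjusted p = 0.0023) and double-deficient intestines (1.08, adjusted p = 0.0092), from 219.7 ± 17.5 in controls to 535 ± 91.3 and 465 ± 65.3. This probe set was detected on 1 of 3 control arrays and on all 3 Apc-deficient arrays. Eif2d has an activity similar to that of Eif2a, and its probe sets disagreed. Its brightest gave 0.43 in Apc-deficient mice and was not called, 1436724_a_at rose by 1.21 (adjusted p = 0.013) and 1437720_at fell by 1.16 (adjusted p = 0.0023), so no direction is given for the gene. Eif2d was the only member with probe sets called both ways in this comparison.

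Of the subunit joining factors, Eif5, which makes eIF2 hydrolyse its GTP, changed by 1.07 in Apc-deficient and 0.95 in double-deficient mice, and Eif5b, the GTPase of joining, by 1.26 and 0.78. Eif6, which keeps the large ribosomal subunit from joining too early, gave 0.29 and -0.11 and was not called. Eif5a, the factor that carries hypusine and helps elongation and termination, was the brightest member and passed narrowly in Apc-deficient mice (0.72, adjusted p = 0.047, lost in 17 of 22 alternatives). Its relative Eif5a2 was undetected on all 9 arrays with detection values.

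Among the genes listed as start codon scanning factors, Eif1a rose in Apc-deficient mice from 881 ± 47.6 to 1777 ± 166, while Eif1ad (0.16) and Eif1b (0.22) were not called. Whether Eif1ad acts in scanning was not examined. Eif1ax, the X-linked gene of eIF1A, had 3 probe sets that did not move together. The brightest, 1419736_a_at, had signals of 698, 1221 and 1027 in controls, 1190, 826 and 1030 without p53, 1536, 2706 and 2087 without Apc and 1737, 1947 and 1532 without both. It changed by 1.10 in Apc-deficient mice (SE 0.28, adjusted p = 0.016) and by 0.07 in p53-deficient mice (95% interval -0.54 to 0.68).

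Probe set 1449576_at of Eif1ax was undetected on all 3 control arrays and detected on all 6 p53-deficient and Apc-deficient arrays. Its signals were 20.5, 30.0 and 26.2 in controls, 184, 142 and 158 without p53, 294, 294 and 409.8 without Apc and 360.0, 299 and 287 without both. Every array of the other genotypes lay above every control array. Taken against the undetected control signals, the fitted ratio of geometric means was 6.37-fold in p53-deficient, 13.0-fold in Apc-deficient and 12.4-fold in double-deficient mice (limma, adjusted p = 0.0033, 6.9e-05 and 0.00019). The bounds computed for these ratios equalled the fitted values, so they are estimates with sampling error and rest on control signals below detection. The 3 calls held in each of the 22 alternatives. Among the 120 member probe sets tested, 2 were called in p53-deficient against control intestines, this one and 1435592_at of Eif5b (0.342% of all probe sets were called). The latter was undetected on every control and p53-deficient array, and so carries no fold here.

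The same Eif1ax probe set was the only one of the 120 called for the interaction (-2.74, SE 0.32, adjusted p = 0.042; 0.0112% of all probe sets were called). Loss of Apc added 0.97 on the log2 scale where p53 was absent (adjusted p = 0.024), against a fitted 3.70 where it was present. The interaction call was lost in 11 of 21 alternatives, 10 of them the omission of 1 or 2 arrays. This probe set is among those that the study itself selected on these arrays, so its calls are no independent evidence. In the deposited annotation it shares its transcript cluster with 1419736_a_at, in which control and p53-deficient arrays overlapped. The third probe set, 1437071_at, from another cluster, had signals of 56.7, 54.3 and 58.5 in controls, 51.7, 48.8 and 55.4 without p53, 186, 143 and 105 without Apc and 72.6, 87.2 and 70.6 without both. It was detected on 1 of 3 control arrays, and the Apc-deficient arrays were the highest. It rose there (1.32, adjusted p = 0.0029) and was not called in double-deficient mice (0.44, adjusted p = 0.19). The cause of the disagreement was not tested, and the probes themselves were not aligned to a genome here.

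**Figure D5:**
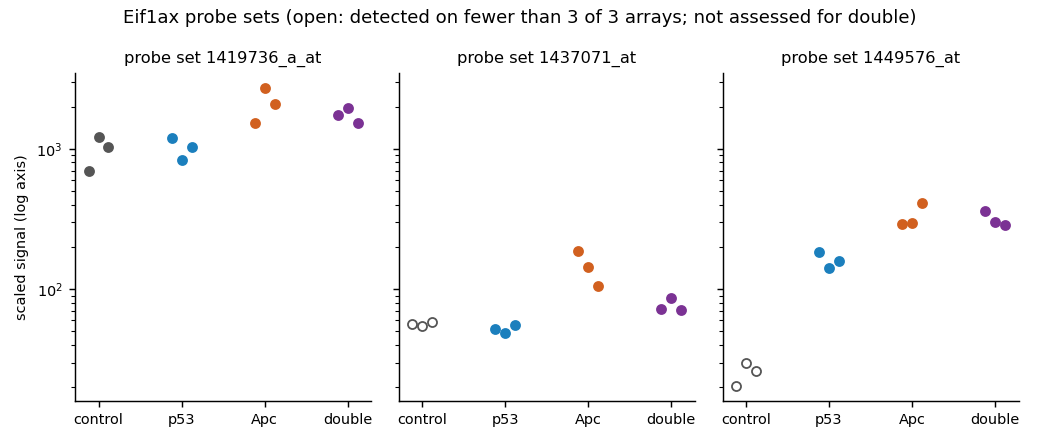
Scaled signals (log axis, arbitrary units) of the 3 Eif1ax probe sets on each array by genotype; open points mark groups in which the probe set was detected on fewer than 3 of 3 arrays, which was not assessed for double-deficient mice. Probe set 1449576_at lies lowest in controls, and 1419736_a_at overlaps between control and p53-deficient mice.

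Other probe sets of the called genes mostly went along. The 29 genes that rose in Apc-deficient mice had 51 further probe sets, of which 32 also rose, 0 fell and 44 had a change above 0. Of all probe sets 16.1% rose and 11.0% fell. The 51 probe sets read genes that were selected by calls on these same arrays, so they are no independent evidence. They were not compared with further probe sets of other called genes. Over all 120 member probe sets tested, 64 rose and 3 fell in that comparison, and those that fell belonged to Eif2d, Eif2b5 and Eif4g3, the last undetected on every control array. In double-deficient against p53-deficient intestines 17 of the member probe sets rose and 0 fell (4.87% and 4.53% of all probe sets), among them dimmer ones of Eif2s2, Eif3a and Eif5, whose brightest were not called.

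The upstream sequences of the members are shown because many members moved together and Myc, whose product binds the E-box CACGTG with its partner Max, moved in the same genotypes. The transcript of Myc was 277 ± 62.3 in controls, 313 ± 106 without p53, 1788 ± 292 without Apc and 1869 ± 705 without both (log2 change 2.70 without Apc, SE 0.34, adjusted p = 0.001). RefSeq windows (GRCm38.p6) were at hand for 37 of the 46 genes, and the 250 bases before the annotated start were searched for CACGTG, which reads alike on both strands. Windows of 8 members held it (21.6%), against 9.23% of the measured genes and 6.86% of all genes in the table. A gene was counted if any of its windows held the motif, and some genes had several (6 for Eif5a, 2 for Eif4e). These shares were not matched on signal level or on the number of windows, and enrichment was not tested. The motif was found in 5 of 23 members that rose in Apc-deficient mice and in 3 of 14 that were not called. A match is no evidence of binding, and whether Myc had a part in these changes was not tested. The stretches around it in the 5 members that rose run as follows, 5′ to 3′ on the gene's strand, with the E-box in capitals.
Eif4e, chr3:138527018-138527072, plus strand: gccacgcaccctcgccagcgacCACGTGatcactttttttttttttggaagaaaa
Eif4a1, chr11:69672580-69672639, minus strand: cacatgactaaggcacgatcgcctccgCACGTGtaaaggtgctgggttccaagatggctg
Eif4h, chr5:134639473-134639532, minus strand: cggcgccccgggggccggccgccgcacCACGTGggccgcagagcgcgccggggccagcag
Eif3f, chr7:108934320-108934379, plus strand: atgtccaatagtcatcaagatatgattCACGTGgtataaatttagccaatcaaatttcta
Eif5a, chr11:69921428-69921487, minus strand: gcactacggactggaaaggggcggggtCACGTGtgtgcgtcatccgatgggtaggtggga

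The E-box began 228, 189, 96, 68 and 74 bases before the start in these genes, in the order given. The window of Eif1ax, which had the member probe set with the largest change, held no CACGTG and is given in full as the 250 bases before its start.
Eif1ax, chrX:159371928-159372177, plus strand: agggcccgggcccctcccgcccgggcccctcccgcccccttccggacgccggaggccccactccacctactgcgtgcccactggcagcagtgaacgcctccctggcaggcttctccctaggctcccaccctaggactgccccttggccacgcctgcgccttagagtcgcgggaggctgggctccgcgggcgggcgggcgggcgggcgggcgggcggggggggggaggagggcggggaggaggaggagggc

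Genes outside the family that act on initiation were counted in the same comparisons, on a list that also holds the transcription factor Myc. Of 29 measured on a list of 30, 10 rose and 0 fell in Apc-deficient mice (median 0.62; 19.3% of all genes and 29.8% of the brighter genes rose), 7 rose and 0 fell in double-deficient mice (9.54% of all genes rose), and 0 were called in p53-deficient mice. After Myc the largest changes in Apc-deficient mice were those of Denr (1.48), which with its partner acts in reinitiation, Abce1 (1.40), which splits ribosomes, and Bzw1 (1.23), a mimic of eIF5. Of 14 elongation and termination factors, 8 rose and 0 fell in Apc-deficient mice (median 0.73), beside the same 19.3% of all genes and 29.8% of the brighter genes. Among them were the release factor genes Etf1 (1.98) and Gspt1 (1.06), Eefsec (1.49), which delivers selenocysteine tRNA, and Eef1e1 (1.19), a partner of tRNA synthetases. In double-deficient mice 2 of them rose, with Eef1e1 at 1.29.

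Cell type transcripts moved with the same genotypes (over all genes 19.3% rose and 12.3% fell in Apc-deficient mice, and 9.54% and 7.69% in double-deficient mice). Proliferation transcripts rose in Apc-deficient mice for 11 of 14 genes (summed scaled signals of 32320 to 37640, against 12870 to 18600 in controls), and 10 of 14 rose in double-deficient mice (25180 to 32670). Enterocyte transcripts fell for 7 and 5 of 13 genes (22950 to 57090 and 27380 to 42270, against 58120 to 67180 in controls). Paneth cell transcripts rose for 4 of 5 genes in both, with sums of 8197 to 13430 in controls, 30040 to 39810 in Apc-deficient and 29160 to 39350 in double-deficient mice; the sums in p53-deficient mice, without a call, were 20930 to 37920. Lymphocyte transcripts fell for 3 of 9 genes in both (4528 to 9827 and 7631 to 10860, against 12080 to 14590). All 14 proliferation, 13 enterocyte and 5 Paneth cell transcripts were detected on all 9 arrays with detection values. The part of these shifts in the changes of the initiation factor genes was not tested.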

How the data were processed

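The authors deposited, for each probe set and Affymetrix MOE430_2 array, a linear intensity before normalisation and a detection p-value, and a normalised table whose values are a score (log signal less the array's mean, over its SD). No source used here names the software that made the signals. A total of 3 per-sample columns, the double-deficient detection values, name no single sample and were not used, so the planned screen on 12 arrays (detection p under 0.2 on at least 1) ran on 9 and can miss probe sets detected only in double-deficient mice. AFFX controls were removed, leaving 35622 probe sets. Signals under 1 were set to 1, converted to log2 and centred on each array's mean. Means per genotype were fitted by limma (version 3.58.1, R 4.3.3, 8 residual degrees of freedom). It replaced SAM, the study's permutation method, because 3 against 3 arrays allow few permutations (a smallest exact p of 0.1 per probe set). The study itself made calls with SAM, by a false discovery rate. The fit was tested on simulated data. Benjamini-Hochberg adjustment ran over all probe sets. p-values measure the spread between mice, and the number of arrays limits the precision.

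Gene symbols came from the platform annotation. Members and lists were chosen with earlier results of these data known. Named are all called members, all Eif1ax probe sets, the 3 largest changes each way per contrast and up to 4 bright members per role. Bounds use, per array, the higher of an undetected signal and the lowest detected one. Detected means p under 0.05.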

Additional observations from a re-analysis of the deposited data

Results flagged for a closer look

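Probe set 1449576_at of Eif1ax differed between p53 backgrounds in its response to Apc loss, by a test of the difference itself (the interaction). Its interaction was -2.74 on the log2 scale (limma, adjusted p = 0.042). Its control signals were undetected, so the size of the interaction rests on signals below detection. Over the 21 alternatives the value ranged from -2.86 to -1.30, the last in units of the deposited score, with adjusted p from 0.013 to 0.19. The interactions of the other Eif1ax probe sets were -0.32 (1419736_a_at) and -0.76 (1437071_at), neither called.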

How the results depend on the processing

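No paired analysis was possible because the replicate numbers are only names given in order and tie no mouse to another. Counts here use the brightest probe set of each gene. Those for Apc loss averaged over p53 status (26, range 24 to 29 without single arrays), for p53-deficient against control and for the interaction (0 in both, also without single arrays) stayed within 1.5 times under every alternative; of the dimmer Eif1ax probe set 1449576_at, the call in p53-deficient against control mice held in all 22 alternatives and the interaction call in 10 of 21. In Apc-deficient against control intestines the count of 29 became 5 without scaling, 18 in the deposited normalised table and 21 to 30 without single arrays; of these calls, 3 held throughout and 15 more were lost only without scaling. In double-deficient against control intestines the count of 13 became 3 without scaling, 20 with a trend in the variance, 3 to 16 without single arrays and 1 without control 3 and double-deficient 3, an alternative chosen after seeing the data. In double-deficient against p53-deficient intestines the count of 4 became 13 with quantile normalisation, 16 without scaling and 10 in the deposited table. It was 8 with the stricter screen, with signals under 20 set to 20 and with the trend, and 1 without a screen, in the fit of only the compared genotypes, with a term for Xist above the Y-linked transcripts (1 array, p53-deficient 3) and without control 3 and double-deficient 3; without single arrays it was 1 to 5. In double-deficient against Apc-deficient intestines 1 was called (lower) with the trend and 0 without single arrays. No call reversed its direction. The causes were not tested. Without scaling the median of all probe sets moved by -0.66, -0.26 and -0.56 in Apc-deficient, double-deficient and p53-deficient against control intestines. Dim members (Eif2ak4, Eif5a2) were at or below detection. Of the 46 members, 41 were detected on all 9 arrays with detection values. Eif2a was detected on 1 of 3 control arrays, and Eif2b1 and Eif4enif1 on 2 of 3.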
